A study of Mus musculus with 27 samples.

Results

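The integrin and laminin chain genes of the mouse were followed across hepatocyte organoids and periportal assembloids. A gene was taken as a member when its symbol began with Itga, Itgb, Lama, Lamb or Lamc and ended in a number, with or without a letter, and Itgav was added. The rule used names and no measured value. It found 33 of the 21850 genes in the count table, of which 13 encode integrin alpha subunits, 9 integrin beta subunits and 11 laminin chains. Itgb2l, a relative of Itgb2, had 0 counts in all 27 libraries.

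The study built organoid models of the periportal liver from primary cells of C57BL/6 mice and asked, among other questions, how contact between cells and extracellular matrix bears on fibrosis. Bulk RNA-seq was available for 9 groups of 3 libraries. Freshly isolated hepatocytes were collected without culture. Their replicates 1 and 2 are labelled wild type, and replicate 3 is titled wild type but carries the genotype label MDR2-het. All other groups are labelled wild type. By the paper's methods, assembloids generally joined wild-type HepOrgs with cells of reporter mice. Their cholangiocytes carried a nuclear tdTomato reporter and their mesenchyme a Pdgfra-H2B-GFP reporter. The mice were healthy adults of both sexes, and the labels give no age per sample. Hepatocyte organoids (HepOrgs) at passage 2 were embedded in Matrigel, itself a laminin-rich basement membrane extract. One set stayed in HM-Wnt, an expansion medium with EGF, HGF, FGF7, FGF10, RSPO1, gastrin, nicotinamide, a GSK3 inhibitor, a TGF-beta receptor inhibitor, a ROCK inhibitor and Wnt-conditioned medium, and another was moved to the minimal medium MM, which keeps Wnt-conditioned medium and the ROCK inhibitor. Both sets were collected after 7 or 14 days. Periportal assembloids joined 10 HepOrgs, 1000 cholangiocytes and either 250 (homeostatic) or 2500 (fibrotic-like) portal mesenchymal cells per well. They were grown in MM within Matrigel and collected after 7 or 18 days, called 1 week and 2.5 weeks. An assembloid library pools the RNA of the 3 cell types, so in these bulk data fewer cells of a type and less RNA per cell cannot be told apart. The labels do not say whether replicates came from separate mice or cultures, and the p-values therefore measure the spread between these libraries.

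Integrins are heterodimers of an alpha and a beta subunit that span the plasma membrane and tie matrix proteins outside the cell to talin, kindlin and actin inside. Itgb1 pairs with most alpha subunits, including the laminin receptors Itga3, Itga6 and Itga7 and the collagen receptors Itga1, Itga2, Itga10 and Itga11. Itga6 can also pair with Itgb4, the beta subunit of hemidesmosomes. Laminins are cross-shaped trimers of an alpha, a beta and a gamma chain and form the first network of a basement membrane. In liver, hepatocytes face a space with little organised basement membrane, whereas bile ducts rest on a continuous one.

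Promoters of the laminin genes Lama5 and Lamb2, named in the comparison of media, and Lamb1, named in that of assembloids, are shown first. They were read from RefSeq promoters of build GRCm38.p6, from 250 bases before to 50 bases after the start of the gene, whereas the count table used GRCm39. Of the 33 members, 22 had an entry. Capitals mark the GC box letters GGGCGG, or CCGCCC where they lie on the other strand. Lama5, on the minus strand at chr2:180225810-180226109, had 4 matches and a GC content of 72.7%. Lamb1, on the plus strand at chr12:31265043-31265342, had 2 matches and 63.7% GC. Lamb2, on the plus strand at chr9:108479612-108479911, had 0 matches and 44.0% GC.
Lama5: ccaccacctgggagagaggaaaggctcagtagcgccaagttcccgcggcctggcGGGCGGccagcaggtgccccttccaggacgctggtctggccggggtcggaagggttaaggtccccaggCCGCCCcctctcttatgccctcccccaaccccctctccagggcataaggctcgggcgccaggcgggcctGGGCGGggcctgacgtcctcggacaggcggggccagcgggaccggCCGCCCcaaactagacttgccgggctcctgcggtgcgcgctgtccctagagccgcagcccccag
Lamb1: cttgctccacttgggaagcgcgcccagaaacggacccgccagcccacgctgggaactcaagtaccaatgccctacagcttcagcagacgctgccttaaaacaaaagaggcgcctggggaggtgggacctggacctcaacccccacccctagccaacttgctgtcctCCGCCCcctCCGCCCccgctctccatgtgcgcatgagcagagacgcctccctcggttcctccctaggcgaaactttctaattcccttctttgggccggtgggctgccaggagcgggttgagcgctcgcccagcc
Lamb2: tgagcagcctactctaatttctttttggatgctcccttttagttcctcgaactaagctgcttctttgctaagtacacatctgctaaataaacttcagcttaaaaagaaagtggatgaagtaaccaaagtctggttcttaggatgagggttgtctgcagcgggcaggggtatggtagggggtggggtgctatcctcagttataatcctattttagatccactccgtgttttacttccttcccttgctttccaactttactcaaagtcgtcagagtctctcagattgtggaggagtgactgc
GGGCGG was found on either strand in 35.7% of the 32851 promoters of this length. The AP-1 letters TGANTCA (7.81% of promoters) and the letters TATAAA (13.6%) were in 0 of these 3 windows.

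The 27 libraries held 30289364 to 65348596 counts (median 43727965). Summed markers of hepatocytes (8 genes) were detected in every group, at 74484 to 100096 CPM (TMM-scaled counts, relative to library size) in freshly isolated hepatocytes and 11998 to 45147 CPM in HepOrgs. The library homeostatic 1 week replicate 2 stood apart. It had reads on 8465 genes against 14016 to 16018 in the other 26 libraries, and its correlation with the other 2 libraries of its group was 0.661 and 0.699 on the log scale. Its hepatocyte markers summed to 908 CPM against 27012 and 15036 in replicates 1 and 3. Among members, 14 had 0 counts in this library, 9 of which had reads in both other libraries of the group, and 15 were above both other libraries. Counts that rest on it are given with and without it.

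Levels of different genes can be set side by side only per length, here as CPM per kilobase of exon. On that scale Itgb1 was first among the members in each of the 9 groups, at 20.5 (MM HepOrgs, 1 week) to 67.2 (fibrotic-like assembloids, 1 week). The second member changed with the group. It was Itga5, the fibronectin receptor subunit, in freshly isolated hepatocytes (5.08 against 27.7 for Itgb1). In HM-Wnt HepOrgs it was Itgav at 1 week (5.25) and Itga3 at 2 weeks (8.12). In fibrotic-like assembloids Itga3 was second at 1 week (21.1). These orders are descriptions of group means. Gene lengths in the count table lie within 5% of the whole gene span for 31 of the 33 members, so intronic reads may be among the counts and long introns may raise a level per exon. In the homeostatic 1 week group the order after Itgb1 rests on replicate 2.

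**Figure D1:**
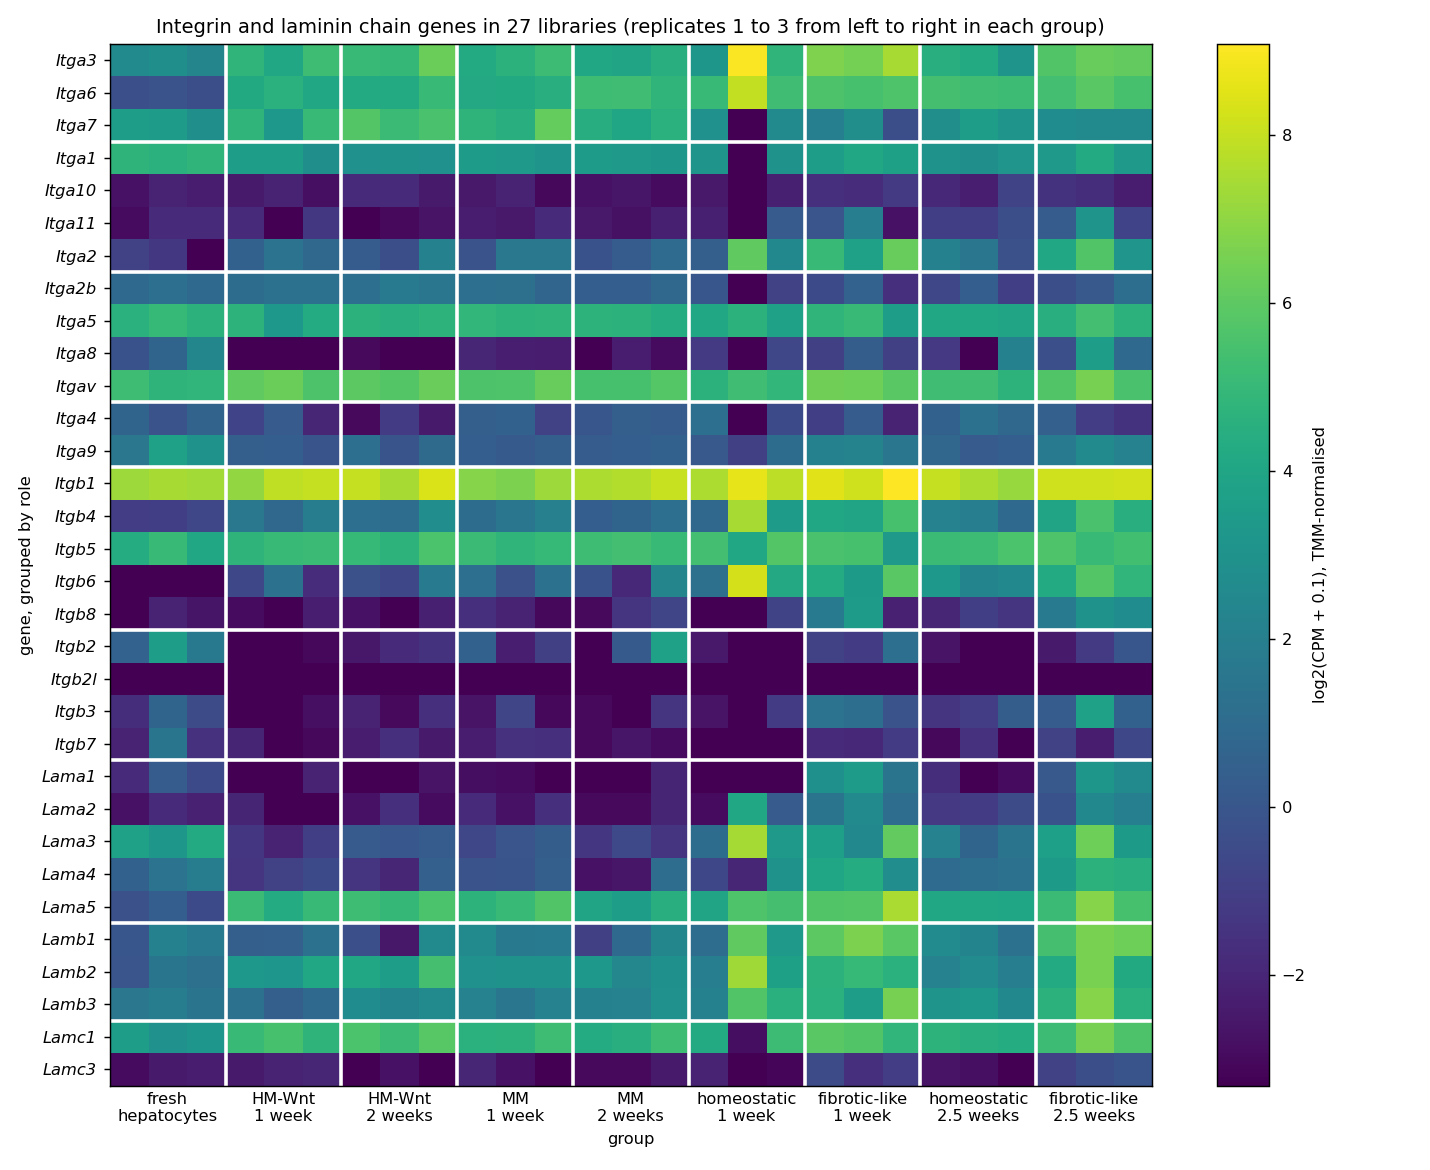
Level of 32 of the 33 members as log2(CPM + 0.1) (colour) in each of the 27 libraries (columns, 3 per group), with genes grouped by role (rows). Itgb1 is bright throughout, Lama5 and Itga6 are dark in freshly isolated hepatocytes and brighter in the cultures, and homeostatic 1 week replicate 2 departs from its neighbours with 14 members at 0 counts.

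HepOrgs were first compared with freshly isolated hepatocytes, which asks how the receptor and matrix repertoire of the cultured cells differs from that of the cells they came from. Laminin-binding integrin subunits and the chains Lama5, Lamb2 and Lamc1 were higher in HepOrgs, while Lama3, Itga8, Itga1 and Itga9 were lower. All 4 comparisons share the same 3 libraries of freshly isolated hepatocytes, so each is given on its own. The fit tested 25 of the 33 members. Itga10, Itga11, Itgb2l, Itgb7, Itgb8, Lama1, Lama2 and Lamc3 had too few counts. In HM-Wnt at 1 week 11 members rose and 7 fell, where 24.9% of all 13405 genes tested were called higher and 24.8% lower (edgeR quasi-likelihood test, adjusted p under 0.05). In HM-Wnt at 2 weeks 12 rose (background 26.1%) and 6 fell (25.7%). In MM at 1 week 11 rose (21.5%) and 4 fell (21.3%), and in MM at 2 weeks 10 rose (19.7%) and 4 fell (20.0%). The median log2 fold change of the tested members was 0.29, 0.59, 0.38 and 0.64 in that order, against 0.02, 0.03, 0.00 and −0.01 over all genes, and the members' medians were the same with genes at 0 in a whole group put at their bound.

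Among laminin chains, Lama5, the alpha chain of laminin-511 and laminin-521, had 0.746, 1.23 and 0.578 CPM in freshly isolated hepatocytes. It had 35.0, 19.9 and 32.6 CPM in HM-Wnt at 1 week and 37.4, 30.4 and 47.6 CPM at 2 weeks. In MM it had 25.7, 33.9 and 52.1 CPM at 1 week and 15.2, 12.2 and 22.0 CPM at 2 weeks. The lowest HepOrg library, in MM at 2 weeks, was still above the highest library of freshly isolated hepatocytes. Log2 fold changes were 5.0 ± 0.38 (SE), 5.41 ± 0.39, 5.37 ± 0.39 and 4.23 ± 0.37 in the order of groups just given (adjusted p = 6.08e-07, 3.22e-07, 5.29e-07 and 2.71e-06, edgeR). Lamb2 and Lamc1, the beta and gamma chains that can join Lama5 in laminin-521, rose by 1.93 to 3.56 and by 1.47 to 2.24 log2 units over the 4 comparisons. The promoters of Lama5 and Lamb2 printed above held 4 and 0 GC boxes.

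Lama3, an alpha chain of epithelial basement membranes, fell in each of the 4 comparisons. Freshly isolated hepatocytes had 13.5, 9.23 and 19.0 CPM. HM-Wnt HepOrgs had 0.290, 0.129 and 0.389 CPM at 1 week and 1.08, 0.930 and 1.13 CPM at 2 weeks, and MM HepOrgs had 0.524, 0.863 and 1.17 CPM and then 0.285, 0.566 and 0.283 CPM. No HepOrg library reached the lowest library of freshly isolated hepatocytes. Log2 fold changes of Lama3 were −5.44 ± 0.47, −3.71 ± 0.43, −3.98 ± 0.43 and −5.0 ± 0.46 in that order (adjusted p = 1.5e-06, 1.48e-05, 1.36e-05 and 3.68e-06). Lamb3, a beta chain of epithelial laminins, fell by 0.78 in HM-Wnt at 1 week (adjusted p = 0.0474) and rose by 0.81 at 2 weeks (0.0384). In MM its differences of 0.29 (0.459) and 0.80 (0.0508) did not pass. Lama4 and Lamb1 were called in 0 of the 4 comparisons, with adjusted p from 0.0705 to 0.875.

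Of the laminin-binding alpha subunits, 3 of 3 rose in HM-Wnt at both times and in MM at 1 week, and 2 of 3 in MM at 2 weeks. Itga6, which pairs with Itgb1 or Itgb4, had 0.719, 0.788 and 0.700 CPM in freshly isolated hepatocytes. It had 18.1, 23.8 and 17.3 CPM in HM-Wnt at 1 week, 19.1, 18.9 and 33.9 CPM at 2 weeks, 17.6, 18.5 and 22.7 CPM in MM at 1 week, and 36.9, 38.1 and 27.7 CPM at 2 weeks. The groups were far apart and their libraries close together. Log2 fold changes were 4.60 ± 0.27, 4.90 ± 0.28, 4.62 ± 0.27 and 5.46 ± 0.28 (adjusted p = 9.57e-08, 6.92e-08, 1.34e-07 and 8.39e-08). Itga3 rose by 1.60 to 2.93 log2 units. Itgb4 rose by 1.80 to 2.91. Itga7 rose by 1.20 to 2.13 in all but MM at 2 weeks, where its difference was 1.01 (adjusted p = 0.101).

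Itgb6, an epithelial beta subunit that pairs with Itgav and activates latent TGF-beta, had 0 counts in all 3 libraries of freshly isolated hepatocytes. HM-Wnt HepOrgs had 0.552, 2.41 and 0.194 CPM at 1 week and 0.756, 0.553 and 3.26 CPM at 2 weeks, and MM HepOrgs had 2.17, 0.755 and 2.41 CPM and 0.778, 0.158 and 4.83 CPM. The libraries within each HepOrg group were spread widely. Against a floor of 3 counts per library, the HepOrg means were at least 10.4-fold, 15.1-fold, 17.7-fold and 19.1-fold higher (adjusted p = 0.0107, 0.00637, 0.0069 and 0.00674). Its partner Itgav rose by 1.01, 1.00, 0.87 and 0.64 log2 units. Itgb1 was not called, with differences of 0.29, 0.59, −0.46 and 0.40 and adjusted p from 0.0794 to 0.384.

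Members that fell were mostly receptors of other matrix proteins or of blood cells. Itga8, a subunit found on stellate and other mesenchymal cells, had 0.772, 1.49 and 5.02 CPM in freshly isolated hepatocytes. It had 0 counts in all 3 HM-Wnt libraries at 1 week, 1 count in 1 library at 2 weeks, and at most 0.155 CPM in MM. It was at least 25.9-fold lower in HM-Wnt at 1 week (adjusted p = 0.0003), and fell by 3.85 ± 0.85 in MM at 1 week (0.00395) and by 4.74 ± 0.88 at 2 weeks (0.00137) on the log2 scale. With all 27 libraries in 1 fit the call in MM at 1 week was lost (adjusted p = 0.102).

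Itga9, a receptor for tenascin and osteopontin, had 2.93, 13.8 and 7.94 CPM in freshly isolated hepatocytes and 1.22, 1.05 and 1.26 CPM in MM at 1 week and 1.11, 1.20 and 1.36 CPM at 2 weeks. It fell by 2.76 ± 0.49 (adjusted p = 0.00059) and 2.69 ± 0.49 (0.000778) in MM. Itga1, a collagen receptor, fell by 1.34 to 1.78 log2 units over the 4 comparisons. Itgb2, the leukocyte beta subunit, had 1.38, 12.4 and 3.17 CPM in freshly isolated hepatocytes. HM-Wnt HepOrgs had 0, 0 and 0.0216 CPM at 1 week, where it was called lower (adjusted p = 0.00514), and 0.0756, 0.176 and 0.255 CPM at 2 weeks (adjusted p = 0.0189). The call at 2 weeks was lost without freshly isolated replicate 2 (adjusted p = 0.0659), HM-Wnt 2 weeks replicate 1 (0.067) or replicate 2 (0.0552).

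Markers of other cells differed too, not all in the same direction. Portal mesenchyme markers (12 genes) did not fall, at 24.4 to 164 CPM in freshly isolated hepatocytes and 38.3 to 278 CPM in HepOrgs. Summed endothelial markers (8 genes) were at 40.5 to 195 CPM in freshly isolated hepatocytes and at most 2.29 CPM in HepOrgs, with Kdr or Clec4g at 0 in each HepOrg group. Immune and Kupffer cell markers (11 genes) were at 47.7 to 490 CPM against 7.62 to 63.3 CPM, with Itgam at 0 in all 5 groups. Cholangiocyte markers (8 genes) were at 11.6 to 143 CPM in freshly isolated hepatocytes, where Cftr was among those at 0, and at 3590 to 15498 CPM in HepOrgs. The part of these cells or programmes in the members' differences was not tested. Without freshly isolated replicate 3, the library with the conflicting genotype label, 16, 17, 15 and 12 members were called (background in either direction 43.2%, 45.5%, 34.8% and 33.4%).

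**Figure D2:**
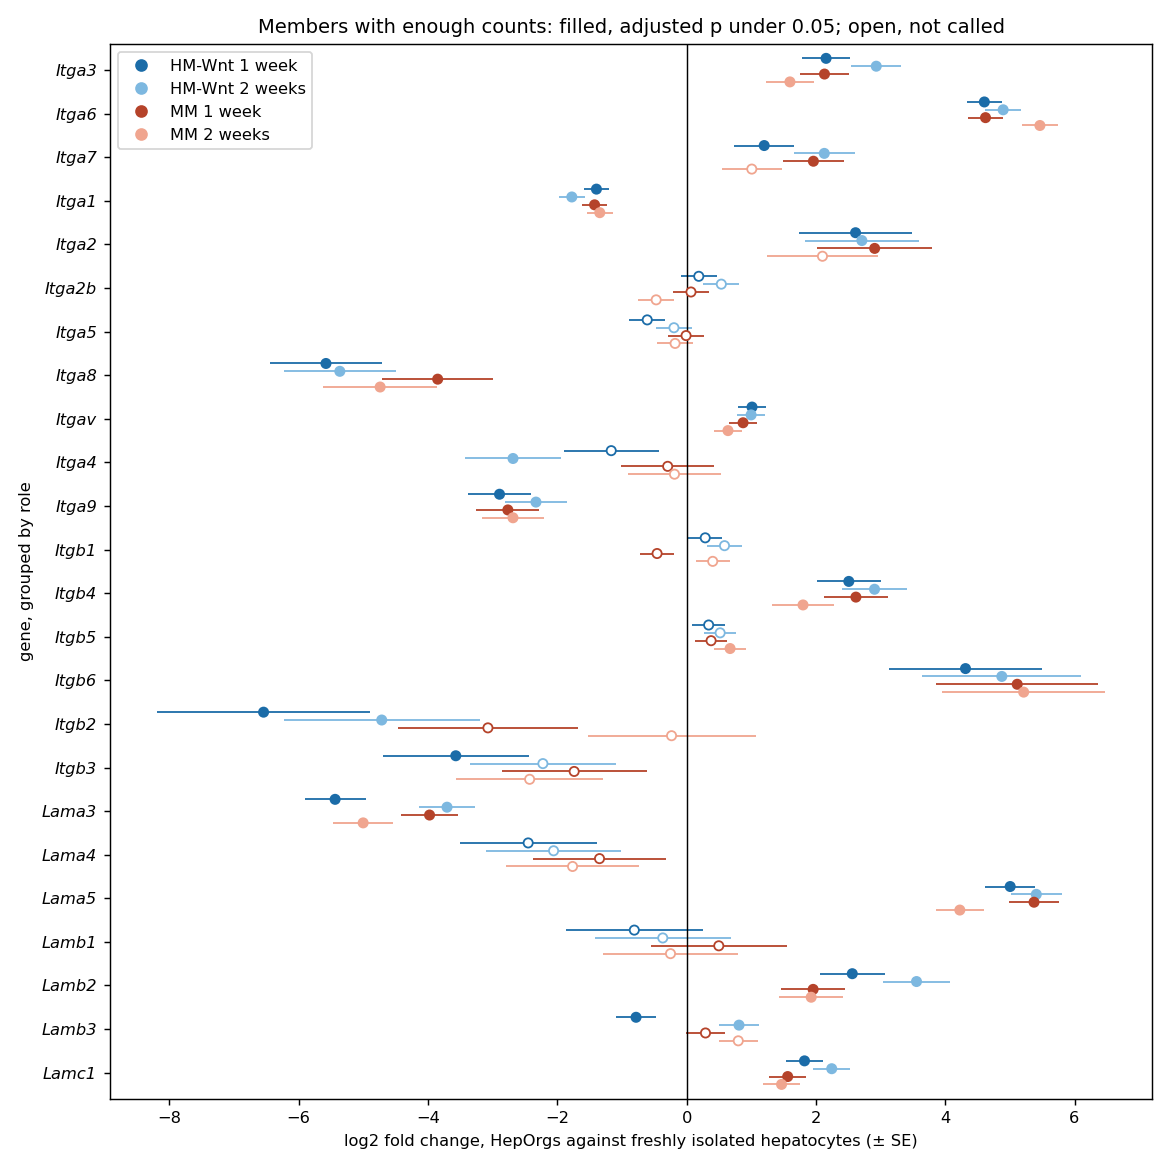
Log2 fold change (x axis) with its SE of 24 of the 25 tested members (y axis) in HepOrgs against freshly isolated hepatocytes, with 1 colour per medium and time and filled points for adjusted p under 0.05. Lama5 lies on the right at 4.23 to 5.41 and Itga6 at 4.60 to 5.46, and Lama3 and Itga8 lie on the left in each colour. The fitted values of Itgb6 and Itga8, which had groups at 0 counts, depend on the prior count and are not bounds.

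Genes that act with integrins and laminins were counted by lists. Among 15 tested adhesion adaptors, 2, 4, 2 and 2 rose and 4, 4, 4 and 3 fell in the order of comparisons above. The kinase Src rose by 4.79 to 5.33 log2 units, while Tln2, a talin, fell by 2.42 to 2.81 and Fermt3, the kindlin of blood cells, fell by 3.52 in HM-Wnt at 1 week. Among 16 basement membrane partners, 6, 7, 8 and 7 rose and 4, 2, 2 and 2 fell. Bcam, a Lama5 receptor, rose by 4.37 to 4.80, Nid1, which links laminin to collagen IV, by 3.15 to 3.66, and Col4a5 by 3.01 to 3.46. Among 13 other integrin ligands, 5, 4, 4 and 2 rose and 0 fell, with Spp1 (osteopontin) up by 7.27 to 7.82 log2 units. The direction backgrounds are those given above for each comparison.

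The comparison of MM with HM-Wnt asks how leaving the expansion medium bears on these genes. At 2 weeks the 4 members that edgeR called without blocking on replicate number were lower in MM. With the block, described below, more members were called, and Itga4 was higher (2.76 ± 0.62). The fit of the 12 HepOrg libraries tested 24 members. At 1 week 0 members were called with edgeR, where 2.96% of 12989 genes were called. There, 4 members had an unadjusted p under 0.05 (22.5% of all genes), and DESeq2 called 2, Lama3 and Lamb3 (10.9%). At 2 weeks 4 members fell and 0 rose (background 11.4%), namely Lamb2, Itga3, Lama5 and Itga2b. Over both times 2 rose, Itgb2 and Itga4, and Lamb2 fell (background 21.5%). The median difference of the members was 0.32, −0.27 and −0.01 log2 units, against medians of 0.00, −0.02 and −0.02 over all genes.

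Replicate numbers paired these libraries, and with the replicate block 2, 7 and 7 members were called at 1 week, at 2 weeks and over both times (background 9.48%, 19.6% and 28.9%). At 1 week these were Itgb1, lower by 0.75 ± 0.20 in MM (adjusted p = 0.048), and Lamb3, higher by 1.07 ± 0.25 (0.0293). At 2 weeks 6 members were lower, among them the 4 above and Itga7 (−1.12 ± 0.31), and Itga4 was higher (2.76 ± 0.62). With the block in edgeR, Lama5 differed by −1.18 ± 0.21 (adjusted p = 0.00382) and Itga3 by −1.21 ± 0.23 (0.00524). Lamb2 differed by −1.47 ± 0.35 (0.0157) and Itga2b by −0.98 ± 0.28 (0.0354). Over both times Itgb2, Itga4 and Lamb3 were higher and Itga3, Itgb1, Lamb2 and Lamc1 lower. Itga4 rose by 1.88 ± 0.42 (adjusted p = 0.00894, edgeR with the block) and Lamb2 fell by 0.99 ± 0.25 (0.014). The differences, adjusted p and calls in the next paragraphs come from the fit without the block. Leaving out single libraries was not run with the block.

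Lamb2, a laminin beta chain, had 17.1, 11.9 and 42.8 CPM in HM-Wnt at 2 weeks and 9.72, 5.18 and 7.41 CPM in MM. The libraries of the media did not overlap. At 1 week it had 9.81, 8.91 and 17.3 CPM in HM-Wnt and 7.57, 7.90 and 7.78 CPM in MM, which did not overlap either but lay close together. It fell by 1.62 ± 0.44 on the log2 scale at 2 weeks (adjusted p = 0.0363) and by 1.12 ± 0.30 over both times (0.0238). At 2 weeks the call was kept only when HM-Wnt replicate 2 was left out. Without any other of the libraries compared the adjusted p was 0.0555 to 0.139, and without HM-Wnt replicate 3 the difference was −0.905. Over both times it was lost without HM-Wnt 1 week replicate 3 (0.0589), MM 1 week replicate 1 (0.0565) or 2 (0.0506) or MM 2 weeks replicate 2 (0.06).

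Lama5, its possible partner, had 37.4, 30.4 and 47.6 CPM in HM-Wnt at 2 weeks against 15.2, 12.2 and 22.0 CPM in MM. The groups were separate, and the difference was −1.17 ± 0.31 (adjusted p = 0.033). Itga3, a receptor of Lama5-containing laminins, had 33.4, 31.1 and 77.4 CPM in HM-Wnt and 17.4, 15.3 and 21.7 CPM in MM at 2 weeks, again without overlap. Its difference was −1.32 ± 0.38 (adjusted p = 0.0464). Without HM-Wnt replicate 3 it was −0.78 (adjusted p = 0.181), and that of Lama5 was −0.995 (0.113). The call of Itga3 was also lost without HM-Wnt replicate 1 (0.0603) or MM replicate 1 (0.135), 2 (0.155) or 3 (0.0632), and that of Lama5 without HM-Wnt replicate 1 (0.0823) or MM replicate 1 (0.113) or 2 (0.129).

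Itga2b, the platelet alpha subunit, had 2.24, 3.49 and 2.84 CPM in HM-Wnt at 2 weeks and 1.19, 1.20 and 1.67 CPM in MM. All 3 libraries in MM were lower, and the difference was −1.0 ± 0.28 (adjusted p = 0.04). The call was kept only when MM replicate 3 was left out, and without any other of the libraries compared the adjusted p was 0.0591 to 0.129. Summed platelet markers (4 genes) were at most 0.113 CPM in HM-Wnt at 2 weeks and at 0, 0.158 and 4.83 CPM in MM, with Gp1bb and Gp9 at 0 in both.

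Itga4, a receptor for fibronectin and Vcam1, had 0.0252, 0.352 and 0.0851 CPM in HM-Wnt at 2 weeks and 0.907, 1.24 and 1.10 CPM in MM. At 1 week it had 0.465, 1.08 and 0.151 CPM in HM-Wnt and 1.26, 1.35 and 0.446 CPM in MM. The groups were apart at 2 weeks and overlapped at 1 week. Over both times it rose by 1.69 ± 0.53 log2 units (adjusted p = 0.0417), a call that was lost when any 1 of 9 libraries was left out (adjusted p 0.0545 to 0.0919). It was kept without HM-Wnt replicate 2 of either time or without MM 1 week replicate 3. Itgb2 had 0, 0 and 0.0216 CPM in HM-Wnt at 1 week and 0.0756, 0.176 and 0.255 CPM at 2 weeks. In MM it had 1.34, 0.108 and 0.405 CPM and then 0, 1.04 and 13.6 CPM, so replicate 3 at 2 weeks was the highest of the HepOrg libraries. Over both times it rose by 4.01 ± 1.04 (adjusted p = 0.019), and by 2.50 without that library (0.0383). Immune markers were also highest there, at 63.3 CPM against 7.62 and 17.9 CPM in the other libraries of the group, and their part in the result was not tested. Without MM 1 week replicate 1 or HM-Wnt 1 week replicate 3 the call was lost (adjusted p = 0.0519 and 0.0573). The fitted values of Itgb2 depend on the prior count, as each HM-Wnt library at 1 week held at most 1 count.

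The change of the medium difference from 1 to 2 weeks was called for 0 of 24 members with edgeR (background 0%), with 7 at an unadjusted p under 0.05 (7.33% of all genes), and DESeq2 called Lama3 (0.354%). The change from 1 to 2 weeks over both media was called for 0 members (background 0.00770%), with 4 at an unadjusted p under 0.05 (11.8%), and DESeq2 called Lamb3 (3.28%). In MM at 2 weeks the adaptor Lims2 rose by 0.85 and Col4a1, a chain of the main collagen IV network, by 1.81. There edgeR called no other gene of the lists of adaptors and partners (background in either direction 11.4%). Of 13 other ligands edgeR called 0 there (3 at an unadjusted p under 0.05) and DESeq2 1. Over both times, where 21.5% of all genes were called in either direction, 3 of 14 adaptors rose, Lims2 (0.81), Parva (0.67) and Ilk (0.68). Of 15 partners, Col4a1 (1.59), Nid2 (1.43) and Col18a1 (1.04) rose and Col4a4 fell by 1.44, and of 13 other ligands Fn1 (fibronectin) fell by 0.52.

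**Figure D3:**
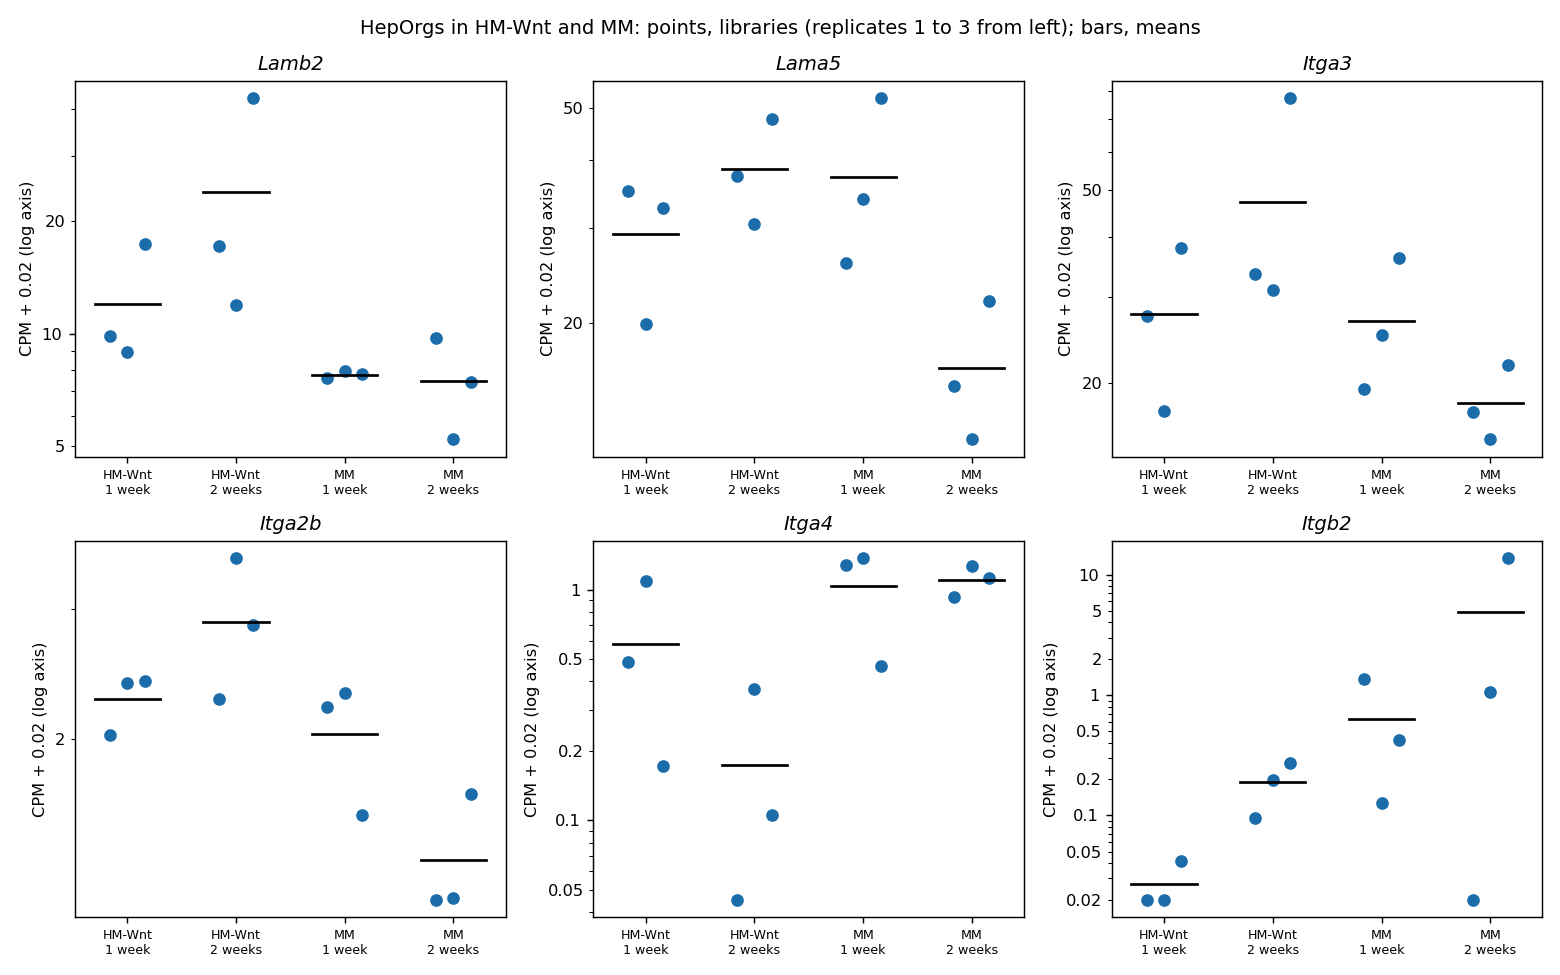
CPM + 0.02 on a log axis for Lamb2, Lama5, Itga3, Itga2b, Itga4 and Itgb2 in the 12 HepOrg libraries, as points by medium and time with bars for group means. At 2 weeks the 3 points in MM lie below the 3 in HM-Wnt for Lamb2, Lama5, Itga3 and Itga2b and above them for Itga4, and 1 point in MM lifts the mean of Itgb2.

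Fibrotic-like and homeostatic assembloids differ in the number of mesenchymal cells, and their comparison asks how that ratio bears on the matrix and its receptors. Without homeostatic 1 week replicate 2, 23 of 32 tested members rose in fibrotic-like assembloids over both times, among them 11 of 11 laminin chains and 12 of 21 integrin subunits, and 0 fell (background for higher 16% of 14746 genes). The median log2 fold change of the 32 tested members was 2.07, and 2.41 for laminin chains and 1.12 for integrin subunits, against 0.12 over all genes. With that library the medians were 1.13, 1.63 and 0.81, against 0.14. With all 12 libraries 0 members were called at 1 week, at 2.5 weeks and over both times with edgeR, and neither was any of the 14253 genes (background 0% in each). At an unadjusted p under 0.05 there were 8, 15 and 13 members (13.9%, 6.63% and 18.8% of all genes), and DESeq2 called 5, 3 and 10 (6.08%, 1.92% and 12.4%). The library left out was on the homeostatic side only. Fibrotic-like 1 week replicate 3 was kept, with hepatocyte markers at 1618 CPM against 10256.5 and 14771 CPM in replicates 1 and 2. Its correlation with these was 0.934 to 0.957 on the log scale. The members described next were chosen by the rule for named genes applied without homeostatic 1 week replicate 2, after its values had been seen.

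At single times fewer passed. Without that library 4 members rose at 1 week (background 3.07%), Lama1, Lamb1, Itga3 and Itgav, and Lamb1 alone at 2.5 weeks (0.244%). Voom with sample quality weights, which kept all 12 libraries and gave that library a weight of 0.006, called 4, 11 and 24 members higher at 1 week, at 2.5 weeks and over both times (background 6.74%, 6.80% and 17.4%). At 2.5 weeks, where homeostatic 1 week replicate 2 is not among the libraries compared, 22 of 32 members had all 3 fibrotic-like libraries above all 3 homeostatic ones (21.7% of all genes tested) and 2 had them below (15.3%).

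Lamb1, the beta chain of laminin-111, laminin-411 and laminin-511, had 61.7, 98.2 and 60.1 CPM in fibrotic-like assembloids at 1 week and 43.0, 97.3 and 80.3 CPM at 2.5 weeks. Homeostatic assembloids had 2.09, 67.0 and 10.0 CPM at 1 week, the 67.0 in replicate 2, and 6.31, 4.78 and 2.45 CPM at 2.5 weeks. Without replicate 2 the fibrotic-like libraries were all above the homeostatic ones at both times. The log2 fold change was then 3.54 ± 0.71 at 1 week (adjusted p = 0.0437), 3.97 ± 0.61 at 2.5 weeks (0.0464) and 3.76 ± 0.48 over both (0.00633). With all libraries it was 1.42 ± 0.95 (0.545), 3.97 ± 1.05 (0.733) and 2.7 ± 0.70 (0.0978). The 2 GC box matches in its promoter, printed above, lie close to each other on the minus strand.

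Lama1, the alpha chain of laminin-111, the trimer that Matrigel is rich in, had 7.39, 11.2 and 2.64 CPM in fibrotic-like assembloids at 1 week and 0 counts in all 3 homeostatic libraries. It was at least 113-fold higher against a floor of 3 counts per library (adjusted p = 0.254 with all libraries and 0.0444 without replicate 2). At 2.5 weeks it had 1.02, 9.42 and 5.94 CPM against 0.207, 0 and 0.0299 CPM. The groups were apart at both times, and over both the log2 fold change was 6.58 ± 1.01 without replicate 2 (adjusted p = 0.00886) and 6.58 ± 1.01 with it (0.084). These fitted values depend on the prior count, as the homeostatic libraries at 1 week had 0 counts.

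Itga3 had 102, 90.4 and 176 CPM in fibrotic-like assembloids at 1 week against 9.25, 514 and 27.6 CPM in homeostatic ones. Homeostatic replicate 2 was the highest of all 27 libraries. At 2.5 weeks it had 53.2, 74.0 and 68.3 CPM against 22.2, 19.0 and 8.59 CPM, with no overlap. Without replicate 2 it rose by 2.68 ± 0.56 at 1 week (adjusted p = 0.0444), and with it the difference was −0.64 ± 1.09 (0.843), the opposite sign. Itgav, which pairs with Itgb6, Itgb8 and other beta subunits, had 84.8, 82.2 and 59.6 CPM at 1 week against 24.8, 39.2 and 30.0 CPM, apart with or without replicate 2. It rose by 1.41 ± 0.33 without that library (adjusted p = 0.0448), and with it the difference was 1.21 ± 0.34 (0.259).

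Itgb8, an Itgav partner that binds latent TGF-beta, had 3.22, 11.3 and 0.123 CPM in fibrotic-like assembloids at 1 week and 3.49, 8.07 and 6.34 CPM at 2.5 weeks. Homeostatic assembloids had 0, 0 and 0.481 CPM and 0.150, 0.390 and 0.269 CPM. The groups overlapped at 1 week through fibrotic-like replicate 3 and were apart at 2.5 weeks. Over both times it rose by 4.16 ± 1.12 without homeostatic replicate 2 (adjusted p = 0.0246), and with it the difference was 4.43 ± 1.27 (0.117).

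Itgb1 was looked at by name because the study deleted it from mesenchyme. It had 368, 293 and 542 CPM in fibrotic-like assembloids at 1 week against 186, 387 and 232 CPM, and 291, 295 and 301 CPM at 2.5 weeks against 252, 187 and 143 CPM. The groups overlapped at 1 week through homeostatic replicate 2 and were apart at 2.5 weeks. With all libraries the differences were 0.52 ± 0.33 at 1 week (adjusted p = 0.525) and 0.57 ± 0.33 at 2.5 weeks (0.839). Without replicate 2 they were 0.89 ± 0.31 (0.0882) and 0.57 ± 0.27 (0.261), and over both times Itgb1 rose by 0.73 ± 0.21 (0.0293), against a difference of 0.54 ± 0.23 with that library (0.244). The other members called over both times without that library were Itga1, Itga2, Itga9, Itgb2, Itgb3, Itgb4, Itgb6 and Itgb7 and the remaining laminin chains, with log2 fold changes from 0.71 (Itga1) to 3.43 (Itgb2). The value of Itgb2 depends on the prior count, as it had at most 3 counts in each homeostatic library. Itga4 (−1.42), Itga7 (−0.74) and Itgb5 (−0.27) were below 0 and were not called.

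Summed portal mesenchyme markers (12 genes) moved with the ratio. They were at 163, 2147 and 416 CPM in homeostatic assembloids at 1 week, the 2147 in replicate 2, and 2799, 6735 and 744 CPM in fibrotic-like ones. At 2.5 weeks they were at 220, 317 and 259 CPM against 1491, 4841 and 5357 CPM. Hepatocyte markers were lowest in homeostatic 1 week replicate 2 (908 CPM) and fibrotic-like 1 week replicate 3 (1618 CPM), where Lama3 was at 168 and 68.6 CPM and Itgb6 at 310 and 59.8 CPM, the highest values of their groups. Summed platelet markers (4 genes) were at most 0.730 CPM in homeostatic assembloids and at 0.602 to 6.51 CPM in fibrotic-like ones. The part of the cell mixture in these differences was not tested.

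The difference between 1 and 2.5 weeks in the effect of the ratio, and the change with time over both ratios, were called for 0 members with edgeR (background 0% in each), DESeq2 or voom, with 5 and 3 members at an unadjusted p under 0.05 in edgeR (1.83% and 3.94% of all genes). Over both times without homeostatic 1 week replicate 2, 16% of all genes were called higher. Among genes that act with the members, 5 of 15 adaptors then rose and Fermt2, a kindlin, fell by 1.04. Fermt1, the epithelial kindlin, rose by 3.40. Of 16 basement membrane partners 6 rose, led by Col4a2 (2.20), and 0 fell. Of 13 other ligands 6 rose, led by the fibrillar collagen genes Col3a1 (4.64), Col1a1 (3.81) and Col1a2 (3.68). The fibrinogen genes Fga, Fgg and Fgb, made by hepatocytes, fell by 1.61, 1.56 and 1.44. The share of all genes called lower is not given here, so these falls stand without a background. With all libraries edgeR called 0 genes of the 3 lists, with 1, 4 and 7 at an unadjusted p under 0.05, and DESeq2 called 1, 2 and 5.

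**Figure D4:**
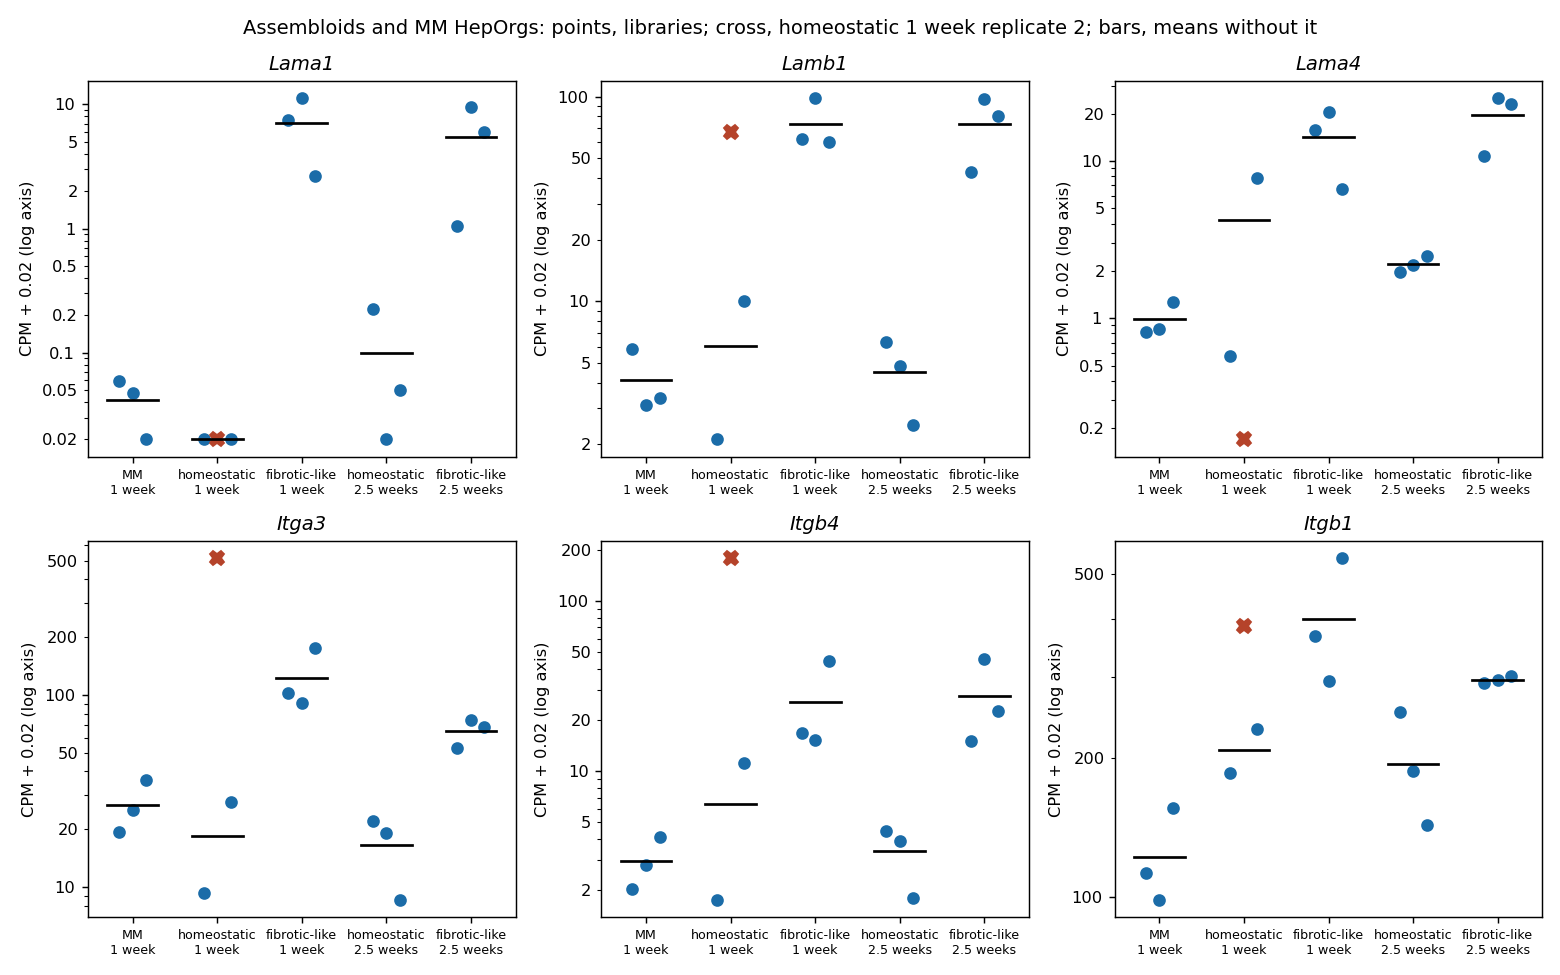
CPM + 0.02 on a log axis for Lama1, Lamb1, Lama4, Itga3, Itgb4 and Itgb1 in MM HepOrgs at 1 week and in the 4 assembloid groups, as points per library, with a cross for homeostatic 1 week replicate 2 and bars for means without it. Fibrotic-like points lie above the homeostatic dots for Lamb1 at both times, and the cross lies among or above the fibrotic-like points for Lamb1, Itga3, Itgb4 and Itgb1.

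**Figure D5:**
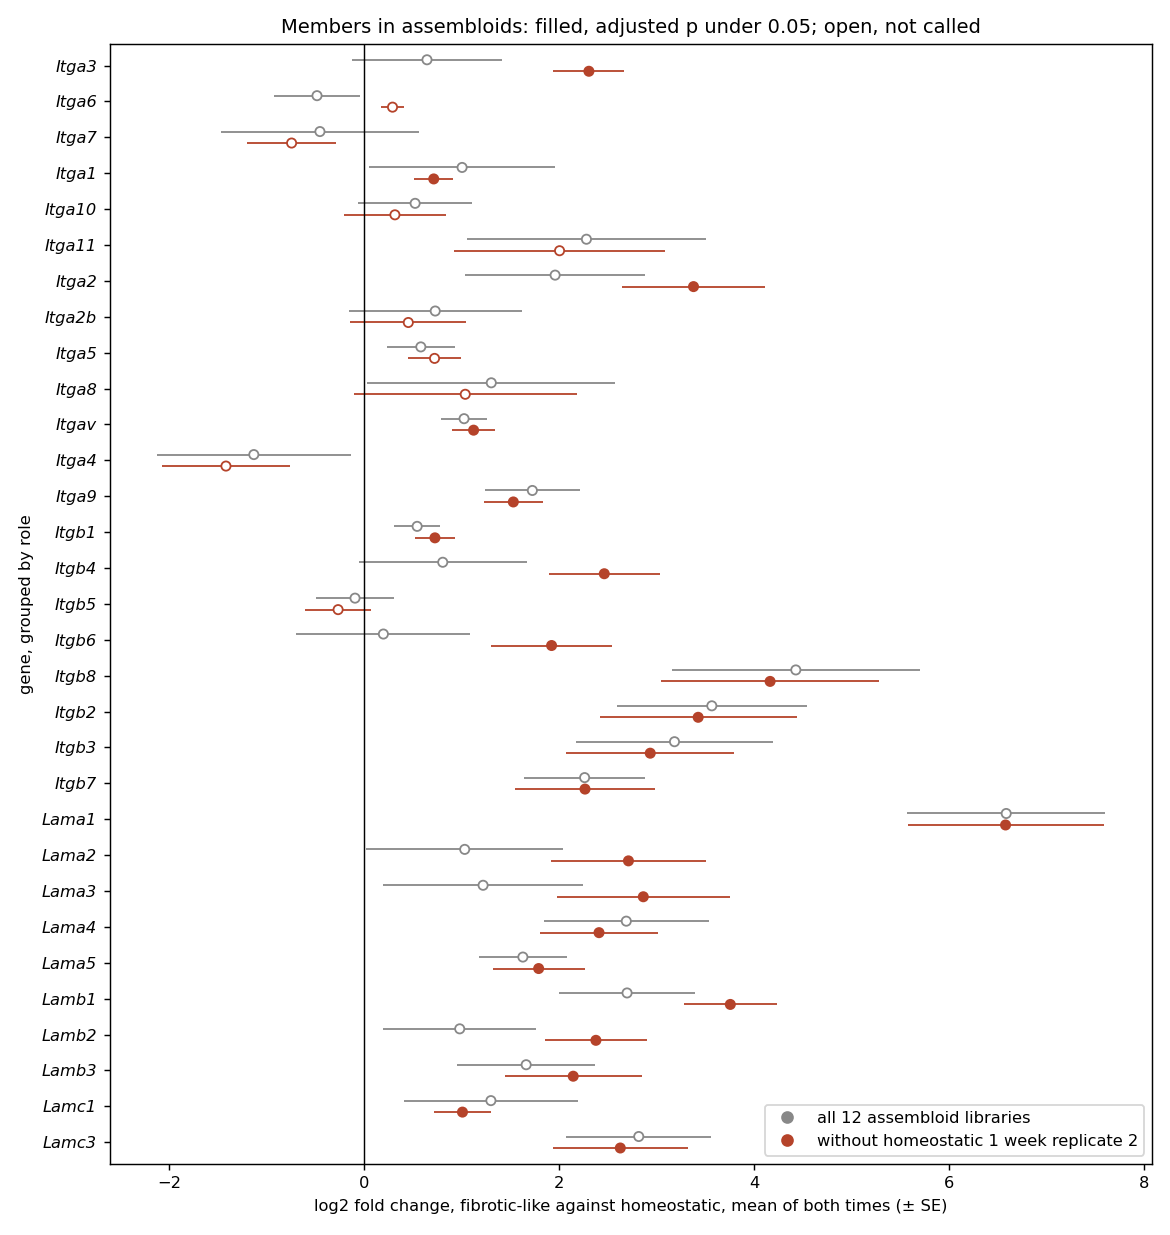
Log2 fold change (x axis) with its SE between fibrotic-like and homeostatic assembloids over both times for 31 of the 32 tested members (y axis), with all 12 libraries (grey) and without homeostatic 1 week replicate 2 (red), filled where adjusted p was under 0.05. All grey points are open, and 22 red points are filled, each to the right of 0.

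Assembloids at 1 week were also set against MM HepOrgs at 1 week, which hold no added cholangiocytes or mesenchyme, to see what co-culture added. Members were called in neither comparison with all 9 libraries (edgeR, 0 of 32 each, background 0% in each), with 13 members for homeostatic and 10 for fibrotic-like assembloids at an unadjusted p under 0.05 (6.88% and 11.2% of all genes). DESeq2 called 5 and 8 (background 1.90% and 5.32%), and voom 0 and 25 (0% and 54.7%). Without homeostatic replicate 2, which only shares the estimate of spread with the fibrotic-like comparison, 14 members rose in fibrotic-like assembloids (background 12.4%) and 1 fell (10.2%). In homeostatic assembloids 0 were called without it, with 7 at an unadjusted p under 0.05 (10.3%). Both comparisons share the MM HepOrg libraries.

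Lama1 had 0.0388, 0.0270 and 0 CPM in MM HepOrgs, all below the fibrotic-like libraries given above, and rose by 6.96 ± 0.87 without replicate 2 (adjusted p = 0.0115). With at most 2 counts in each MM HepOrg library, this value depends on the prior count. Against a floor of 3 counts per library Lama1 was at least 106-fold higher. Lama3 had 0.524, 0.863 and 1.17 CPM in MM HepOrgs against 12.8, 5.47 and 68.6 CPM, and rose by 4.98 ± 1.10 (0.0235). Lama2, a chain of mesenchymal and muscle laminins, had 0.175, 0.0539 and 0.223 CPM against 2.62, 5.93 and 2.07 CPM, and rose by 4.23 ± 1.11 (0.0344). For these 3 alpha chains every fibrotic-like library lay above every MM HepOrg library. Itga7, a laminin receptor best known in muscle, was the member that fell. It had 26.9, 22.7 and 71.6 CPM in MM HepOrgs and 4.04, 6.99 and 0.698 CPM in fibrotic-like assembloids, without overlap, and fell by 3.38 ± 0.82 (0.0285). With all 9 libraries the adjusted p was 0.360 for Lama1, 0.377 for Lama3, 0.436 for Lama2 and 0.537 for Itga7, with differences of the same sign. Portal mesenchyme markers summed to 120 to 278 CPM in MM HepOrgs at 1 week against 744 to 6735 CPM in fibrotic-like assembloids, and hepatocyte markers to 12334 to 28531 CPM against 1618 to 14771 CPM. Cholangiocyte markers (8 genes) already summed to 3589.7 to 9313.5 CPM in MM HepOrgs at 1 week, without added cholangiocytes. At 1 week they summed to 7137 to 8164 CPM in homeostatic assembloids, the 8164 in replicate 2. In fibrotic-like assembloids at 1 week they were at 7727 to 10889 CPM, so their range overlapped that of MM HepOrgs. The part of these cells or programmes in the members' differences from MM HepOrgs was not tested.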

How the data were processed

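The authors prepared SMARTseq2 libraries with Nextera tagmentation, sequenced them paired-end, mapped the reads with STAR to GRCm39, and counted reads per gene with featureCounts. The deposited table holds whole-number counts of reads per gene, not normalised, and TPM values made from them. Counts were used as deposited, and TPM only in an alternative. For 80.8% of 21705 genes matched to GENCODE the listed length lies within 5% of that of the whole gene with its introns. Of 858 genes lying wholly inside another gene, 712 (83.0%) had 0 counts, against 12.0% of the other genes. G0s2 and Hsd11b1, inside Lamb3, and Pelo, inside Itga1, were among those at 0. Whether reads in such overlaps were dropped or counted for the member was not tested. Strand is not kept by this library type, so reads could not be told apart where a member overlaps a gene on the other strand (Itga1 and Itga2 with Mocs2, Itga4 with Cerkl, Itga7 with Mettl7b, Itgb4 with Galk1, Lama4 with Fam229b, Lama5 with Adrm1, Lamb1 with Dld, Lamb3 with G0s2 and Hsd11b1). The table has 37 libraries, of which 10 were not used here.

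Counts were tested with edgeR 4.0.16 in R 4.3.3 (TMM factors, filterByExpr with a minimum count of 10 and total of 15, prior count 2, robust quasi-likelihood fit and test) in 4 fits: fresh hepatocytes with HepOrgs, HepOrgs, assembloids, and MM HepOrgs with assembloids at 1 week. This gave 16 comparisons. P-values were adjusted by Benjamini-Hochberg over all genes tested, with 0.05 as threshold. CPM use TMM library sizes. A bound uses a floor of 3 counts per library, which covers counting error only. The alternatives were RLE factors, DESeq2 1.42.0, no filter, limma 3.58.1 on log2(TPM + 1) where 3 libraries reached 1 TPM, a single fit over the 27 libraries, blocking on replicate number, and dropping libraries singly. Voom with sample quality weights, and leaving out homeostatic 1 week replicate 2 where it only shares the spread, were added after seeing the data. The scripts were tested on simulated counts.

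Members and gene lists were chosen with earlier results of these data known. The text names up to 3 called members with the highest and 3 with the lowest fold change per comparison, plus Itgb1 in assembloids, and other members by role. Values of 1 member, which enters the counts and medians, and of 1 cholangiocyte marker, which enters the summed level, are not reported here. Names beyond that rule were chosen after their values were seen. Across genes, deviations from the group mean correlated over 0.1 in 18 of 18 pairs of HepOrg libraries with the same replicate number (0.127 to 0.503), against 2 of 36 other pairs, so the numbers pair these libraries. What a number marks is not stated in the labels.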

Additional observations from a re-analysis of the deposited data

How the results depend on the processing

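Among recounts of members called, 192 lay within 1.5 times the reported count and 45 did not, and among refits of the members named from fits with all libraries, and of Itgb1 in assembloids, 347 kept direction and side of the threshold, 42 lost the call and 0 reversed. Members named only without homeostatic 1 week replicate 2 are not in this count, and for one of them, Itga3 at 1 week, the sign differed with that library (−0.64 against 2.68). The lost calls lay mostly between media. At 2 weeks the call was lost in 8 of 12 refits for Itga3, 5 of 12 for Lama5 and 6 of 12 for Lamb2. Over both times it was lost in 10 of 17 for Itga4, 6 of 18 for Lamb2 and 3 of 17 for Itgb2. Itgb1 in assembloids, with 13 and 14 refits, had no call to lose. Against freshly isolated hepatocytes, limma on log2(TPM + 1), which tested 12 members, called 10, 11, 9 and 9 (HM-Wnt 1 and 2 weeks, MM 1 and 2 weeks), fewer by construction, and all 27 libraries in 1 fit called 11 in HM-Wnt at 1 week and 7 and 8 in MM, for which the cause was not tested. Leaving out a library gave 16 to 18, 16 to 19, 15 to 16 and 12 to 17. Between media DESeq2 called 2 at 1 week, 8 at 2 weeks, 6 over both times, 1 for the change of the difference and 1 for time. The replicate block gave 2, 7 and 7 and moved no other count by over 1.5 times. No filter gave 2 at 2 weeks, limma on TPM 1 over both times, and all 27 libraries 0 at 2 weeks and 0 over both times. Leaving out a library gave 0 to 4 at 2 weeks, with 0 without HM-Wnt replicate 1 or MM replicate 2 and 1 without HM-Wnt replicate 3 or MM replicate 1. Over both times it gave 0 to 4, with 0 without HM-Wnt 1 week replicate 3 or MM 1 week replicate 1 and 1 without MM 1 week replicate 2 or MM 2 weeks replicate 2. Between assembloids DESeq2 called 5, 3 and 10 at 1 week, 2.5 weeks and over both, voom 4, 11 and 24, limma on TPM 5 over both, and all 27 libraries 3 at 1 week and 12 over both. Leaving out a library gave 0 to 4, 0 to 1 and 0 to 23, each maximum without homeostatic 1 week replicate 2. Against MM HepOrgs DESeq2 called 5 (homeostatic) and 8 (fibrotic-like), voom 25 in the second, all 27 libraries 3 and 5, and leaving out a library 0 to 0 and 0 to 15, the 15 without homeostatic replicate 2. The fit with freshly isolated hepatocytes holds the same HepOrg libraries. In it 19 of 30 same-number pairs were over 0.1, against 7 of 60 other pairs. In the assembloid fit 6 of 18 were, against 5 of 36 other pairs. In the fit of MM HepOrgs with assembloids 2 of 9 were, against 4 of 18 other pairs. The block gave 18, 20, 15 and 14 members against freshly isolated hepatocytes and 0 in the assembloid comparisons. Genes with few counts, such as Itgb2, Itga8 and Lama1, set the limit of depth here, where 1 to 3 reads decide a level.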

Other observations

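Several members stood higher in 1 library of fibrotic-like assembloids than in the other two of its group. Itgb3, the vitronectin receptor subunit, was at 1.10, 13.6 and 1.35 CPM in fibrotic-like assembloids at 2.5 weeks, and Itga11, a collagen receptor of fibroblasts, at 1.10, 8.56 and 0.462 CPM. Replicate 2 was high for both. In the same group Itga8 was at 0.706, 11.7 and 1.80 CPM, with replicate 2 again above the others. Hepatocyte markers of that library summed to 6841 CPM against 21004 and 26833 CPM in replicates 1 and 3, platelet markers to 6.51 CPM against 0.602 and 1.72 CPM, and portal mesenchyme markers to 4841 CPM against 1491 and 5357 CPM.

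Itga6 in homeostatic assembloids at 1 week was at 245 CPM in replicate 2 against 34.2 and 38.2 CPM in replicates 1 and 3. In the other assembloid libraries it was at 36.7 to 59.0 CPM.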
